A study of Mus musculus with 12 samples.

Results

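Hispidulin, a plant flavone, was compared with its vehicle in the hearts of mice that had the chest operation without any banding of the aorta. The members were the 6 libraries of the 12 in the series whose labels read hispidulin+Sham (3 mice) or DMSO+Sham (3 mice). No measured value entered that choice. The mice of both groups were C57BL/6 by their labels (males of the C57BL/6J substrain in the study's methods), were operated at 8 weeks of age and were killed at 12 weeks, 4 weeks after sham surgery. The hispidulin+Sham mice received hispidulin at 20 mg/kg/day in DMSO by intraperitoneal injection from the day ahead of surgery, and the DMSO+Sham mice received DMSO alone on the same schedule, so both groups share the vehicle and the operation and neither is an untreated heart. The other 6 mice had aortic banding (AB) under the same treatments. In the comparison of the sham groups they served only to filter genes by level and to estimate the spread between mice. They also served to compare the hispidulin difference between sham and banded hearts, and as a range for single mice. Polyadenylated RNA of left ventricular muscle was sequenced, and the authors deposited FPKM, a read count scaled by transcript length and by library size. Of 18079 genes listed, 11664 reached an FPKM of 1 in 3 or more of the 12 mice and were tested on the log2(FPKM + 1) scale.

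The heart draws most of its energy from fatty acids burned in mitochondria. The deacetylase Sirt1, the kinase AMPK and the coactivator PGC-1alpha (encoded by Ppargc1a) are known regulators of the number and activity of mitochondria, and flavones are known to act on several enzymes of this kind as well as on the aryl hydrocarbon receptor and on Nrf2, a factor that drives antioxidant and detoxifying genes. In an unloaded adult ventricle the fetal and stress genes Nppa, Nppb, Myh7 and Acta1 are held low, the atrial myosin light chains are nearly silent, and interferon and acute-phase genes are at basal levels unless the tissue or the animal has met an inflammatory stimulus.

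The read depth of the libraries is unknown, and values carry only the spread between mice as their error. Summed over genes, a sham mouse had 538369 to 561224 FPKM, and 11194 to 11404 genes reached an FPKM of 1. The ventricular regulatory light chain Myl2 was the most abundant of the 8 ventricular markers, at 13135, 16920 and 11178 FPKM in DMSO+Sham 1, 2 and 3 and at 14727, 16103 and 13447 in hispidulin+Sham 1, 2 and 3. The ventricular light chain Myl3 ran from 6602 to 8355 FPKM over the 6 mice, while the ventricular transcription factors Irx4 and Hey2 ran from 9.59 to 16.90 and from 2.24 to 3.61. The atrial light chain Myl7 was at 5.33, 15.03 and 5.50 FPKM in DMSO+Sham and at 0.27, 0.29 and 333 in hispidulin+Sham, so that hispidulin+Sham 3 stood apart from the other 5 mice. DMSO+Sham 3 also stood apart, with acute-phase and interferon genes high. Leaving out one of these mice moved the difference by more than 0.3 on the log2 scale in 699 genes (5.99 percent), and for those whose difference is printed the value without that mouse is given too. A bulk level cannot tell fewer cells of a type from less RNA per cell.

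In the unbanded heart, 0 genes passed the test between hispidulin+Sham and DMSO+Sham (adjusted p under 0.05 from limma, 0 percent of 11664 tested). The smallest adjusted p was 0.337, for Cd200, followed by 0.674 for the predicted gene Gm3558, and the third smallest was 0.9999. Without adjustment, 287 genes (2.46 percent) had a p under 0.05, and 135 of them were higher and 152 lower with hispidulin. By the thresholds of the study (adjusted p up to 0.001 and a 2-fold difference or more) 0 genes were called. Over all genes tested the median log2 difference was -0.01. The 95% interval of the difference had a median reach of 0.32 to either side on the log2 scale, and it lay inside -1 to 1 for 11062 genes (94.8 percent) and inside -0.5 to 0.5 for 7810 (67.0 percent). For these genes a difference beyond 1, or beyond 0.5, on this scale was outside the 95% interval of the estimate. For the others the 3 mice a group did not settle the size. The interval uses 1 spread shared by all groups. Throughout, 2-fold means 1 on the log2(FPKM + 1) scale, which at low FPKM takes more than a 2-fold difference in FPKM.

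Of the regulators of mitochondrial biogenesis 0 passed the test. Sirt1 was at 5.41, 4.58 and 5.59 FPKM in DMSO+Sham and at 4.16, 4.85 and 6.74 in hispidulin+Sham. The groups overlapped, and the log2 difference was 0.00 with a 95% interval from -0.41 to 0.40. Ppargc1a was at 26.25, 23.29 and 12.04 FPKM in DMSO+Sham and at 26.57, 24.33 and 22.96 in hispidulin+Sham. The low value belonged to DMSO+Sham 3. The log2 difference of Ppargc1a was 0.32 (95% interval -0.30 to 0.94) over the 6 mice and -0.0085 without DMSO+Sham 3. Ppara, the nuclear receptor that drives fatty acid burning genes, differed by 0.00 (-0.38 to 0.38), and Prkaa2, a catalytic subunit of AMPK, by 0.16 (-0.12 to 0.45). The list of sirtuins, AMPK subunits and biogenesis regulators had 28 members, all tested. Their median was 0.00, beside -0.01 over all genes tested, and all 28 intervals lay inside -1 to 1. Prkab1, a regulatory subunit of AMPK, was the member under an unadjusted p of 0.05 (2.46 percent of all tested genes), at 20.89, 19.28 and 24.23 FPKM in DMSO+Sham and 17.97, 17.16 and 17.89 in hispidulin+Sham (log2 difference -0.26, 95% interval -0.52 to -0.0005). In 3 of the 28 the treated mice were all below the vehicle mice and in 1 all above, beside 2.83 percent and 2.77 percent of all tested genes. The lower ones were Prkab1, the nuclear receptor Rxra (27.36, 21.13 and 24.38 against 20.04, 20.63 and 19.54 FPKM, difference -0.26) and the PGC-1-related coactivator Pprc1 (3.91, 5.35 and 5.42 against 3.73, 3.69 and 3.25 FPKM, difference -0.36). The higher one was Prkag1, another AMPK subunit (71.90, 69.86 and 64.13 against 74.08, 77.83 and 73.87 FPKM, difference 0.13).

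For complex I of the respiratory chain, 36 subunits were tested, 0 passed, 30 differences were positive and the median was 0.05 on the log2 scale. DMSO+Sham 3 was the lowest mouse in 19 of the 36, and without it the median was -0.0023. All 36 intervals lay inside -0.5 to 0.5. Ndufa3, an accessory subunit of complex I, was at 998, 901 and 982 FPKM in DMSO+Sham and at 1073, 955 and 944 in hispidulin+Sham, which overlap (0.04, 95% interval -0.14 to 0.23). Complexes II to IV had a median of 0.02 over 27 subunits and the ATP synthase a median of 0.01 over 16, and every interval of both lists lay inside -0.5 to 0.5. With any 1 sham mouse left out, the medians of the respiratory chain, ATP synthase, citric acid cycle, fatty acid oxidation and fusion, fission and mitophagy lists stayed between -0.06 and 0.08. The catalytic ATP synthase subunits Atp5a1 and Atp5b differed by 0.00 (-0.19 to 0.20) and -0.02 (-0.19 to 0.15). The citric acid cycle list had a median of 0.00 over 18 enzymes. Fatty acid oxidation had a median of -0.02 over 23 genes, with all 23 intervals inside -1 to 1. Its member with the largest difference was Cpt1a, the carnitine transferase that admits long fatty acids to mitochondria in most tissues, at 15.56, 12.55 and 9.31 FPKM in DMSO+Sham and 17.38, 16.68 and 13.47 in hispidulin+Sham (0.34, 95% interval -0.0005 to 0.68, and 0.16 without DMSO+Sham 3). In Cpt1a the groups overlapped through DMSO+Sham 1. Genes of fusion, fission and mitophagy had a median of 0.06 over 16. The fusion gene Mfn2 differed by 0.15 (-0.12 to 0.41), Opa1 by 0.06 and the fission gene Dnm1l by 0.18 (-0.25 to 0.61), and the receptor of mitophagy Bnip3 by -0.64, which became -0.02 without DMSO+Sham 3 (689 FPKM there against 134 to 263 in the other 5 mice).

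**Figure D1:**
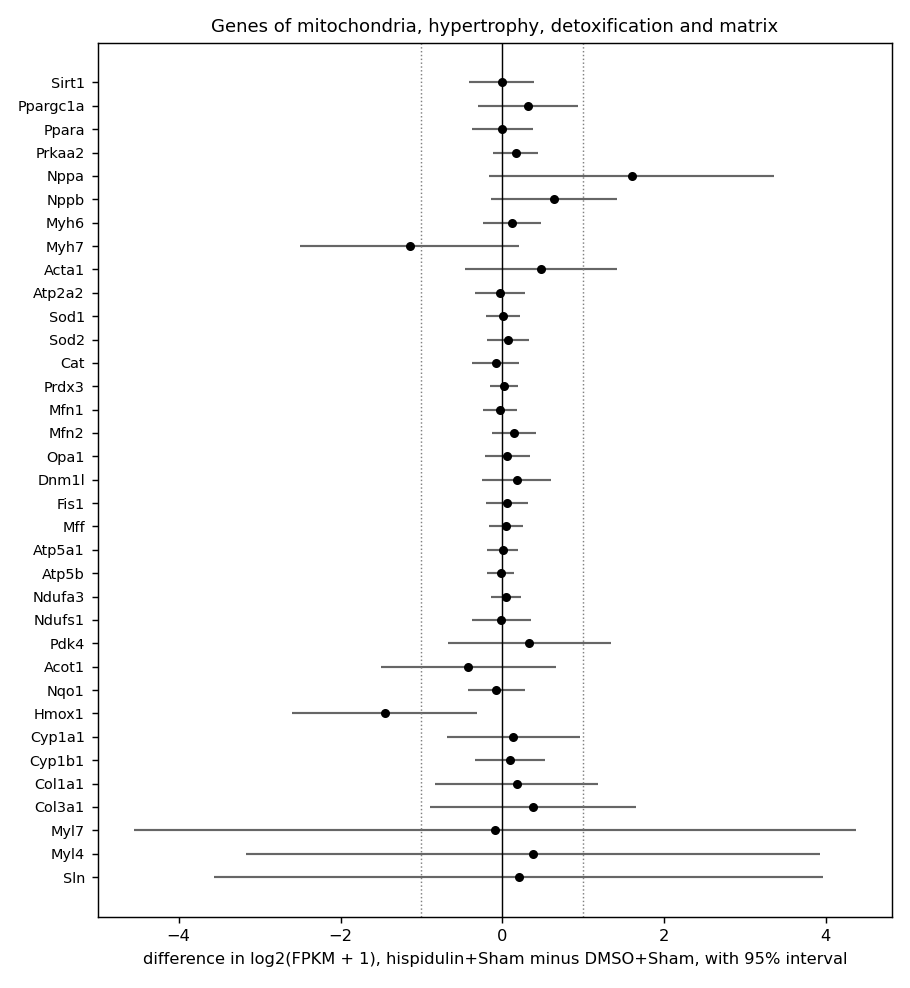
Difference in log2(FPKM + 1), hispidulin+Sham minus DMSO+Sham, with its 95% interval from limma, for 35 genes of mitochondria, hypertrophy, detoxification and matrix (points, estimates; lines, intervals; dotted lines, 2-fold). The antioxidant and mitochondrial genes from Sod1 to Ndufs1 sit near 0 with short intervals, whereas the atrial genes Myl7, Myl4 and Sln have intervals that reach beyond -3 and 3, and Hmox1 is the gene of this set with an interval that leaves out 0.

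PPAR receptors are switched on by fatty acids, and of their 17 target genes tested 0 passed. Pdk4, which restrains glucose oxidation, was at 954, 205 and 515 FPKM in DMSO+Sham and at 756, 345 and 774 in hispidulin+Sham. Numbers 2 were the low mice of both groups. The difference was 0.33 with an interval from -0.67 to 1.34, and with a mouse left out it ran from -0.26 without DMSO+Sham 2 to 0.85 without DMSO+Sham 1. Angptl4, a secreted inhibitor of lipoprotein lipase, was at 23.29, 4.70 and 7.01 FPKM in DMSO+Sham and at 30.43, 6.41 and 13.43 in hispidulin+Sham (0.53, 95% interval -0.61 to 1.68). The Angptl4 difference was -0.0014 without hispidulin+Sham 1, 1.15 without DMSO+Sham 1 and -0.44 with library weights. Set side by side by number, the treated mouse was higher in all 3 pairs for Angptl4 and in pairs 2 and 3 for Pdk4. The labels do not pair these mice, and the match by number was taken from these same data. Of the PPAR targets 11 were positive and 4 intervals lay inside -0.5 to 0.5, and the median of 0.09 ran from -0.16 without DMSO+Sham 2 to 0.26 without DMSO+Sham 1. Acot1, a thioesterase, differed by -0.42, and by -0.0091 without DMSO+Sham 3. Glycolysis and glucose transport had a median of 0.07 over 22 genes (-0.0065 without DMSO+Sham 3), with all 22 intervals inside -1 to 1, and Gapdh differed by 0.07 (-0.22 to 0.36).

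Of the contractile genes 0 passed, and the intervals of the fetal ones were wide. Myh6, the adult alpha myosin heavy chain, was at 5420, 4569 and 3996 FPKM in DMSO+Sham and at 5678, 5394 and 4117 in hispidulin+Sham, a difference of 0.12 (-0.24 to 0.48). Myh7, the fetal beta chain, was at 35.17, 100.7 and 185 FPKM in DMSO+Sham and at 43.52, 46.72 and 28.92 in hispidulin+Sham. The groups overlapped through DMSO+Sham 1, and the difference of -1.14 (95% interval -2.50 to 0.21) was -0.60 without DMSO+Sham 3. Nppa, the atrial natriuretic peptide, was at 71.84, 269 and 94.95 FPKM in DMSO+Sham and at 204, 264 and 967 in hispidulin+Sham. The high value was that of hispidulin+Sham 3, the mouse with atrial genes, and the difference of 1.60 (-0.16 to 3.36) was 0.91 without it. Nppb, the related B-type peptide, was at 111, 366 and 143 FPKM against 352, 210 and 298, an overlap, with a difference of 0.63 (-0.14 to 1.41). Actc1, the cardiac actin, was at 7909, 10201 and 2741 FPKM in DMSO+Sham and at 10393, 10414 and 8442 in hispidulin+Sham. Here too 1 mouse, DMSO+Sham 3, was low. The difference in Actc1 was 0.68 (-0.08 to 1.45) and 0.11 without that mouse. The calcium pump Atp2a2 differed by -0.02 (-0.33 to 0.28). Of 14 hypertrophy response genes 0 passed, 8 were positive and the median was 0.07, which ran from -0.19 without DMSO+Sham 1 to 0.37 without DMSO+Sham 3 and was -0.14 without hispidulin+Sham 3, and 17 sarcomere and calcium genes had a median of 0.01.

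Of the 20 antioxidant enzymes, 0 passed the test. Sod1 was at 509, 447 and 557 FPKM in DMSO+Sham and at 521, 503 and 493 in hispidulin+Sham (0.01, 95% interval -0.20 to 0.22). Sod2 differed by 0.07 (-0.18 to 0.33), Cat by -0.08 (-0.37 to 0.21) and Prdx3 by 0.02 (-0.15 to 0.19). The list had a median of 0.01 over 20 enzymes, with 19 intervals inside -1 to 1. Nrf2 targets had a median of -0.04 over 23 tested members, which was 0.03 without DMSO+Sham 3. Of them 0 passed, 6 were positive and 17 negative, and 3 were under an unadjusted p of 0.05, beside 2.46 percent of all tested genes.

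These 3 pointed in both directions. Gsta3, a glutathione transferase, was at 11.63, 5.30 and 6.32 FPKM in DMSO+Sham and at 14.14, 15.56 and 15.16 in hispidulin+Sham. The groups did not overlap, and the difference was 0.93 (95% interval 0.41 to 1.45; adjusted p = 0.9999 from limma). It stayed between 0.73 and 1.23 with any sham mouse left out. Ephx1, the microsomal epoxide hydrolase, was at 41.84, 33.48 and 26.58 FPKM in DMSO+Sham and at 47.21, 44.54 and 44.45 in hispidulin+Sham, again without overlap (0.43, 95% interval 0.07 to 0.79, and 0.27 without DMSO+Sham 3). Hmox1, heme oxygenase, was at 30.00, 7.63 and 62.96 FPKM in DMSO+Sham and at 6.70, 8.04 and 10.92 in hispidulin+Sham. DMSO+Sham 1 and 3 were high and DMSO+Sham 2 lay among the treated mice. The Hmox1 difference was -1.46 (-2.595 to -0.32) and -0.80 without DMSO+Sham 3. Nqo1, the quinone reductase often used as a readout of Nrf2, differed by -0.07 (-0.43 to 0.28). Aryl hydrocarbon receptor and xenobiotic genes had a median of 0.10 over 13 tested, and 0 passed. That median was -0.08 without DMSO+Sham 2, -0.05 without hispidulin+Sham 3 and 0.21 without hispidulin+Sham 2. Cyp1a1, the most inducible of them, was at 4.20, 2.17 and 0.48 FPKM in DMSO+Sham and at 2.2, 1.39 and 3.21 in hispidulin+Sham, with a difference of 0.13 (-0.69 to 0.96) that was -0.35 without DMSO+Sham 3. Cyp1b1 differed by 0.10 (-0.33 to 0.52), and by 0.34 without that mouse.

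The promoter of Gsta3 is shown because this gene had the largest difference among the tested Nrf2 targets on the higher side. The 150 bases before its start (RefSeq, GRCm38.p6, chr1:21240435-21240584, plus strand) hold 1 match, in capitals, to the antioxidant response core TGACNNNGC, searched on both strands.
Gsta3: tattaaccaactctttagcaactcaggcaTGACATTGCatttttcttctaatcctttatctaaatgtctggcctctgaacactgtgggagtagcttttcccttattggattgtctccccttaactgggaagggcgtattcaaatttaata
Promoter rows of 300 bases were found for 20 of the 23 tested Nrf2 targets, and 9 of these held the core, against 14.0 percent of the 27025 genes in the table. A match is a description of the letters in this window and says nothing on binding. Hmox1 and Ephx1 were not among the 9.

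Beside these lists, 323 genes (2.77 percent) had all 3 hispidulin+Sham mice above all 3 DMSO+Sham mice and 330 (2.83 percent) had all 3 below. Of these, 89 and 97 were also under an unadjusted p of 0.05, and none of them passed the adjustment. The largest differences among the 89 were those of Gm2260 and Gm2274 (1.00 each), Gsta3, Plvap, Pcsk6, Wee1, Cys1, Fndc1, Ppp1r3c and Cmtm5. Gm2260 and Gm2274 had identical values in all 12 mice, so the reads behind them cannot be told apart and they count as 1 measurement. Plvap, the diaphragm protein of fenestrated endothelium, was at 2.62, 5.26 and 3.70 FPKM in DMSO+Sham and at 6.83, 7.68 and 8.33 in hispidulin+Sham, a difference of 0.86 (0.27 to 1.45). Ppp1r3c, which targets a phosphatase to glycogen and promotes its synthesis, was at 57.59, 62.18 and 46.33 FPKM in DMSO+Sham and at 74.60, 88.53 and 104.4 in hispidulin+Sham. It was the most abundant of these genes, with a difference of 0.68 (0.35 to 1.00) that stayed between 0.55 and 0.80 with any sham mouse left out. Pcsk6, a proprotein convertase that is known to process the natriuretic peptide convertase corin, was at 14.88, 18.99 and 5.92 FPKM in DMSO+Sham and at 21.37, 24.26 and 19.81 in hispidulin+Sham. Its difference of 0.81 was 0.35 without DMSO+Sham 3. The gene of the smallest p, Cd200, fell outside the rule for named genes and was picked after its values were seen. Cd200, a surface glycoprotein that restrains myeloid cells, was at 22.89, 22.89 and 24.76 FPKM in DMSO+Sham and at 32.89, 38.44 and 41.33 in hispidulin+Sham. The groups were far apart relative to their spread, and the difference of 0.65 (0.43 to 0.86; adjusted p = 0.337 from limma) stayed between 0.58 and 0.74 with any sham mouse left out. Its adjusted p ranged from 0.0609, with library weights, to 1.00 over the alternatives.

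On the lower side the largest of the 97 were Gm3558, Slc15a3, Plaur, Krt80, Scx, Gm43305, Gm3435, Irx2, Gimap5 and Milr1. Gm3558 was at 1.10, 1.76 and 1.02 FPKM in DMSO+Sham and at 0.27, 0.00 and 0.00 in hispidulin+Sham, a difference of -1.07 (-1.48 to -0.65; adjusted p = 0.674 from limma) at the floor of the scale. Plaur, the urokinase receptor, was at 1.88, 3.88 and 5.88 FPKM in DMSO+Sham and at 1.54, 1.04 and 1.57 in hispidulin+Sham, a difference of -0.95 (-1.88 to -0.03). Scx, a transcription factor of tendon and valve fibroblasts, was at 5.53, 7.75 and 11.10 FPKM against 5.48, 3.33 and 3.96, with a difference of -0.77. The groups of Scx nearly touched. Irx2, a homeobox gene, was at 4.38, 5.48 and 4.64 FPKM in DMSO+Sham and at 3.15, 2.85 and 2.16 in hispidulin+Sham (-0.65, 95% interval -1.06 to -0.25). Slc15a3, Krt80 and Milr1 had their highest value in DMSO+Sham 3, and their differences of -1.04, -0.78 and -0.64 were -0.33, -0.33 and -0.26 without that mouse. Endothelial markers had a median of 0.06 over 12 genes (-0.02 without hispidulin+Sham 3) and 0 passed. Within that list Eng, a coreceptor of endothelial TGF-beta signalling, was higher without overlap (76.88, 63.87 and 71.33 against 86.00, 82.81 and 97.84 FPKM, difference 0.33) and the tight junction gene Cldn5 was lower without overlap (17.85, 16.08 and 14.75 against 14.54, 8.82 and 11.27 FPKM, difference -0.48).

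**Figure D2:**
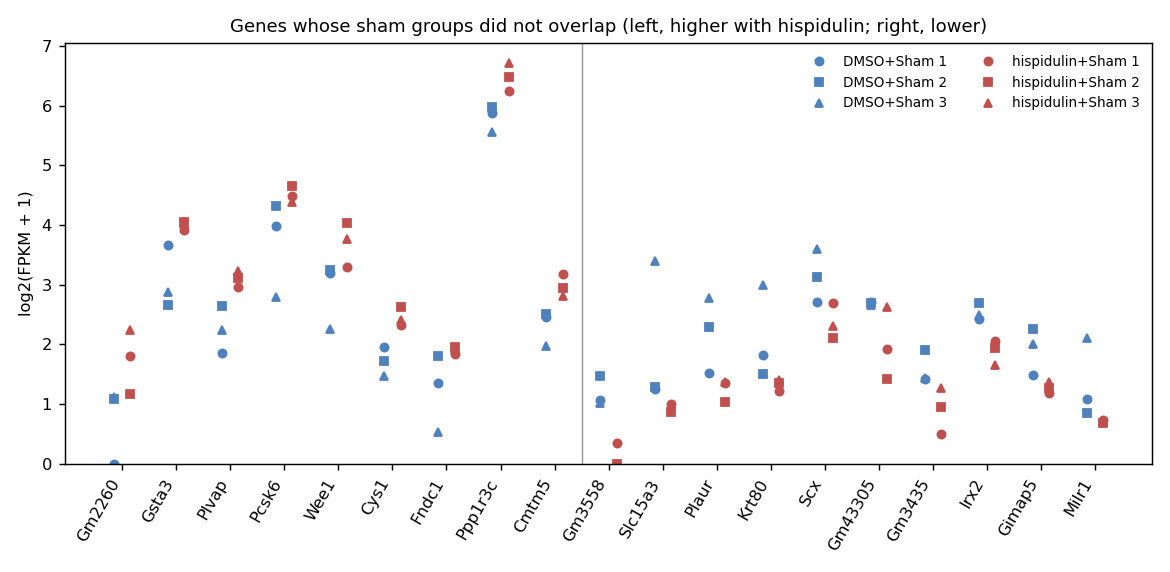
log2(FPKM + 1) in each sham mouse (blue, DMSO+Sham; red, hispidulin+Sham; marker shape, mouse number) for the genes of largest difference whose groups did not overlap at an unadjusted p under 0.05, higher with hispidulin on the left and lower on the right. Gm2274, identical to Gm2260, is left out, and in Slc15a3, Krt80 and Milr1 the blue triangle of DMSO+Sham 3 lies well above all other points.

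Clock genes had a median of 0.21 over 18 tested, 13 of them positive, and 0 passed. The core clock runs on the activators Arntl and Clock, which switch on the Per and Cry repressors and output factors such as Dbp and Tef through E-boxes. Cry1 was at 5.14, 5.92 and 4.36 FPKM in DMSO+Sham and at 6.79, 8.14 and 7.59 in hispidulin+Sham, and Per2 was at 7.73, 7.94 and 5.36 against 9.27, 11.83 and 10.42. Both were without overlap, with differences of 0.48 (0.23 to 0.72) and 0.53 (0.13 to 0.94). The cell cycle kinase Wee1, known as a clock output, was at 8.20, 8.46 and 3.76 FPKM in DMSO+Sham and at 8.78, 15.32 and 12.66 in hispidulin+Sham (0.80, 95% interval 0.21 to 1.39), and its difference was 0.475 without DMSO+Sham 3. Other members moved further without that mouse. Dbp was at 72.58, 92.98 and 17.61 FPKM in DMSO+Sham and at 88.51, 72.93 and 68.11 in hispidulin+Sham, a difference of 0.61 that was -0.11 without DMSO+Sham 3. Arntl was at 2.2, 1.26 and 10.42 FPKM against 1.31, 0.78 and 2.36, a difference of -0.86 that was -0.16 without that mouse. So in DMSO+Sham 3 the activator was high and the output factor low. The hour at which each mouse was killed is not given in the sources used here. Without DMSO+Sham 3 the median of the list was 0.08, while Cry1 and Per2 kept differences of 0.38 and 0.38.

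The promoter of Cry1 is shown for the E-box, CACGTG, which reads the same on both strands. In the 150 bases before the start (RefSeq, GRCm38.p6, chr10:85185055-85185204, minus strand, read along the gene) there was 1 match, in capitals.
Cry1: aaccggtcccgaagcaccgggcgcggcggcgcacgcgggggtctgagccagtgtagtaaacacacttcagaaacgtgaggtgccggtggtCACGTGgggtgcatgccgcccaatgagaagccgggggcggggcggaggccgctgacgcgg
Of the 18 clock genes tested, 15 had promoter rows and 5 held an E-box in the 300 bases, against 8.09 percent of all genes in the table. Wee1 and Per2 had no row.

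Most of what was large in this comparison rested on 1 vehicle mouse. At least 2-fold apart were 40 genes (0.343 percent of those tested), 7 higher and 33 lower with hispidulin. The 7 hold 2 pairs of predicted genes with identical values in all 12 mice, Gm2260 with Gm2274 and LOC100862456 with LOC102641086, and so 5 separate measurements. In 32 of the 33 lower genes DMSO+Sham 3 was the highest of the 6 sham mice, as it was in 3702 of all tested genes (31.7 percent). Without DMSO+Sham 3 the count was 12, and 8 of the 40 were among them. Of the 33 lower genes, 24 were then within 0.5 of 0 on the log2 scale, and 2, H2-Q6 and Gm3558, were still 2-fold. Leaving out another mouse moved the count the other way, to 112 without DMSO+Sham 1 and 138 without DMSO+Sham 2, with 35 and 39 of the 40 among them. Without hispidulin+Sham 1, 2 or 3 it was 46, 45 or 59, with 29, 30 and 33 of the 40 among them. The number under an unadjusted p of 0.05, 287 with all mice, was 595, 1096 and 153 without DMSO+Sham 1, 2 and 3 and 216, 227 and 174 without hispidulin+Sham 1, 2 and 3. In every one of these fits the count of genes that passed stayed at 0.

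**Figure D3:**
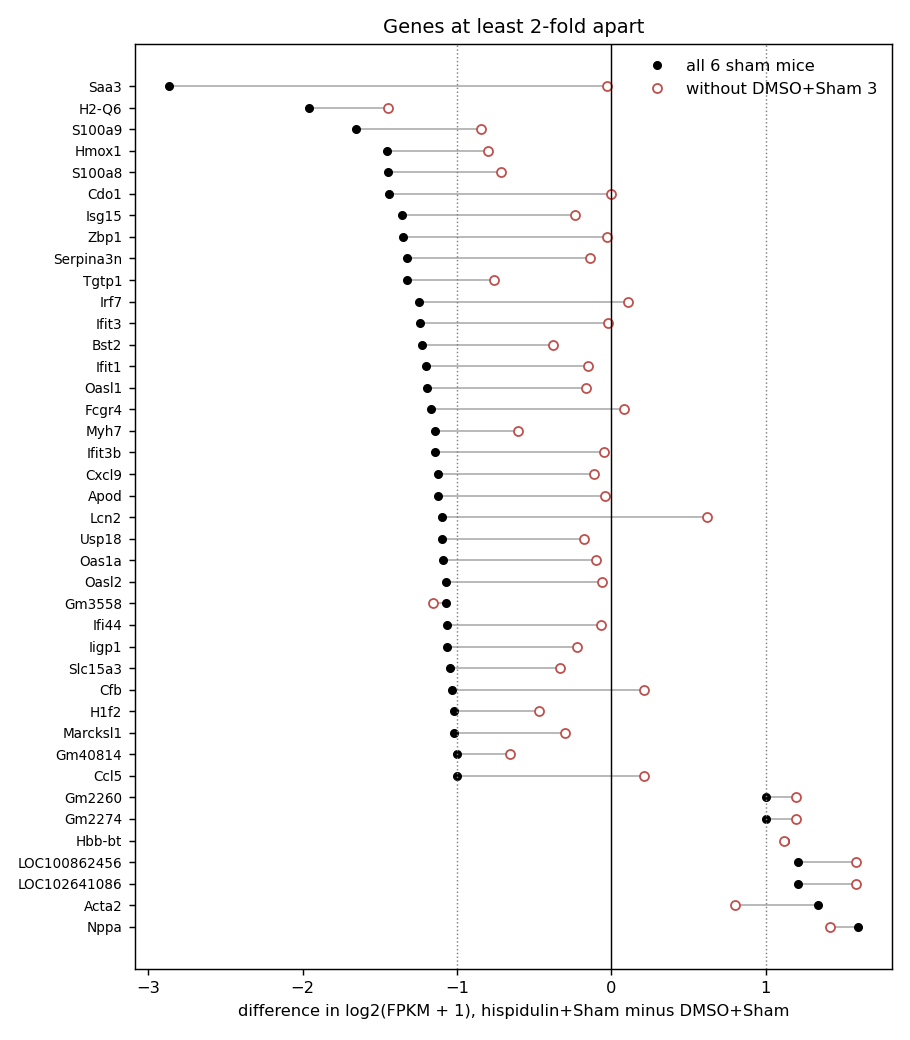
Difference in log2(FPKM + 1), hispidulin+Sham minus DMSO+Sham, of the 40 genes at least 2-fold apart, with all 6 sham mice (filled) and without DMSO+Sham 3 (open); dotted lines mark 2-fold. On the lower side, led by Saa3 at -2.86, 24 of the 33 open points lie within 0.5 of 0, whereas the 7 genes on the higher side (5 separate measurements) keep differences from 0.80 to 1.59.

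Each mouse was also set against the mean of the other 2 of its own group. In DMSO+Sham 3 there were 534 genes at least 2-fold from the others (4.58 percent), 416 higher and 118 lower. The count was 345 (2.96 percent) in DMSO+Sham 2, with 138 higher and 207 lower, and 169 (1.45 percent) in DMSO+Sham 1, with 27 higher and 142 lower. Among the treated mice it was 28 (0.24 percent), 60 (0.514 percent) and 49 (0.42 percent) in hispidulin+Sham 1, 2 and 3. The banded mice gave 42 to 195. DMSO+Sham 3 had more than any of the 12, and it also enters the means that DMSO+Sham 1 and 2 were set against. Compared directly, DMSO+Sham 1 and 2 were at least 2-fold apart in 227 genes (1.95 percent), and pairs of treated sham mice in 49 to 99. In 7870 genes (67.5 percent) the SD was larger among the DMSO+Sham mice, with a median SD of 0.18 against 0.13 on the log2 scale. Correlations of log2 values over all tested genes, which are not independent replicates, ran from 0.957 to 0.983 within DMSO+Sham, from 0.987 to 0.992 within hispidulin+Sham and from 0.960 to 0.993 between them.

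**Figure D4:**
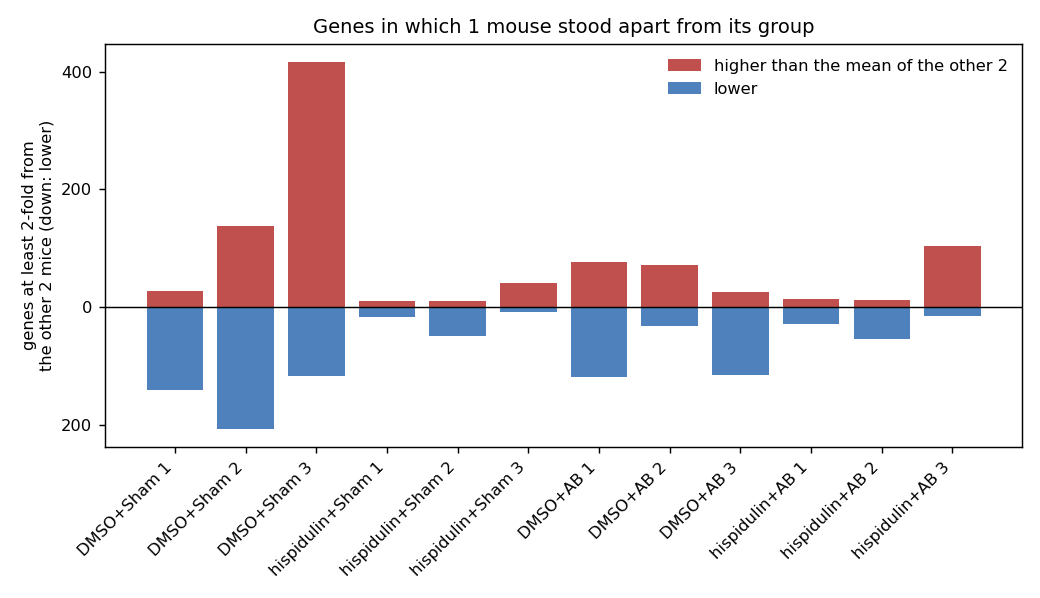
Number of genes in which a mouse lay at least 2-fold above (red, up) or below (blue, down) the mean of the other 2 mice of its group, for all 12 mice. DMSO+Sham 3 has 416 above, the tallest bar, and the hispidulin+Sham mice have 11, 10 and 41.

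Interferon-stimulated genes were all highest in DMSO+Sham 3. The list holds 21 tested members, 21 of the differences were negative with a median of -0.96, 0 passed, and 4 were lower without overlap, beside 2.83 percent of all tested genes. Without DMSO+Sham 3 the median was -0.07. Isg15, a ubiquitin-like modifier, was at 4.07, 5.25 and 57.08 FPKM in DMSO+Sham and at 2.84, 3.35 and 5.55 in hispidulin+Sham. Irf7, the factor that amplifies the interferon response, was at 7.69, 6.13 and 131 FPKM in DMSO+Sham and at 8.20, 6.56 and 7.76 in hispidulin+Sham. Apart from DMSO+Sham 3 the groups lay within the same range, and the Irf7 difference of -1.25 was 0.11 without that mouse. Ifit3, an antiviral effector, was at 6.10, 5.73 and 85.42 FPKM against 4.28, 5.82 and 7.76, and the nucleic acid sensor Zbp1 at 0.93, 0.61 and 26.91 against 0.85, 0.32 and 1.13. Bst2, or tetherin, which holds virions at the cell surface, kept a gap without that mouse. It was at 24.86, 27.27 and 158 FPKM in DMSO+Sham and at 19.53, 17.71 and 22.57 in hispidulin+Sham, and its difference of -1.23 was -0.38 without DMSO+Sham 3. Ifitm3, a membrane protein that blocks viral entry, was likewise without overlap (135, 144 and 656 against 130, 112 and 130 FPKM), with -0.91 over 6 mice and -0.17 without DMSO+Sham 3.

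The upstream sequences of 4 members that were at least 2-fold apart are shown because they share a short motif, the core of the interferon response element, which is GAAA, then any 2 bases, then GAAA again, searched on both strands and printed in capitals (overlapping matches run together; a match on the other strand is printed as its reverse complement). Each is the 150 bases before the start, read along the gene, from RefSeq on GRCm38.p6. Isg15 lies at chr4:156200819-156200968 on the minus strand with 3 overlapping matches, Ifit3 at chr19:34583379-34583528 on the plus strand with 1, Ifit1 at chr19:34640739-34640888 on the plus strand with 2, and Bst2 at chr8:71537473-71537622 on the minus strand with 2.
Isg15: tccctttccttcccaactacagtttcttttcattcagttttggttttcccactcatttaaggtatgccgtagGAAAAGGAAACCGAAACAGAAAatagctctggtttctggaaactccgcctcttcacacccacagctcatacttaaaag
Ifit3: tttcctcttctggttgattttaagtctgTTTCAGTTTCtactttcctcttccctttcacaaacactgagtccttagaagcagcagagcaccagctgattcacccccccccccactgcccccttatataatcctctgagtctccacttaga
Ifit1: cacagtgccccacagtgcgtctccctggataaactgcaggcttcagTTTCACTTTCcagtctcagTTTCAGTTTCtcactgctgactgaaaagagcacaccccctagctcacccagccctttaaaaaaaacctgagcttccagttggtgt
Bst2: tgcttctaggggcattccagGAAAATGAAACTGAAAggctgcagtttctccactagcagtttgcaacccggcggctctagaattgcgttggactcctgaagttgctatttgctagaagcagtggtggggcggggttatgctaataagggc
Promoter rows were found for 15 of the 21 tested members, and 10 of the 15 held the core within 300 bases, against 3.99 percent of the 27025 genes in the table. The row of Irf7 held none.

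Acute-phase genes stood out in the same mouse. Saa3, a serum amyloid protein of inflamed tissue, was at 1.24, 0.31 and 624 FPKM in DMSO+Sham and at 1.22, 0.00 and 1.14 in hispidulin+Sham. Lcn2, an iron-binding lipocalin, was at 12.06, 3.45 and 273 FPKM against 10.43, 9.73 and 12.21, and the protease inhibitor Serpina3n at 66.69, 8.64 and 300 against 32.08, 9.87 and 33.73. DMSO+Sham 3 was the highest mouse for each, and DMSO+Sham 2 was the lowest for Lcn2 and Serpina3n. The list of neutrophil and acute-phase genes had 10 tested members, 10 negative, with a median of -1.02 that was -0.08 without DMSO+Sham 3. The differences were -2.86 for Saa3, -1.10 for Lcn2 and -1.33 for Serpina3n, with intervals that all include 0. Without DMSO+Sham 3 they were -0.03, 0.62 and -0.14. DMSO+Sham 3 was the highest mouse for 9 of the 10, and for the neutrophil receptor Cxcr2 it was at 1.37 FPKM, beside 1.45 in hispidulin+Sham 3. Of the listed neutrophil genes too low to be tested, Ngp was at 1.74 FPKM in that mouse and at most at 0.07 in the other 5, Ly6g at 0.37 and at most 0.09, Camp at 0.28 and 0, and Ltf at 0.23 and at most 0.03. The myeloid alarmins S100a8 and S100a9 were at 21.66 and 30.96 FPKM in DMSO+Sham 3 against 0.16 to 6.15 in the others. The 14 macrophage and monocyte markers summed to 618 FPKM in DMSO+Sham 3, against 295 and 357 in the other vehicle mice and 294 to 442 in the treated ones. DMSO+Sham 3 was the highest of the 6 for 10 of the 14. Csf1r was at 14.55 FPKM in DMSO+Sham 3 and 15.86 in hispidulin+Sham 3, Mrc1 at 5.86 and 6.52, and Cd163 at 5.88 and 9.18. In that mouse the cell cycle inhibitor Cdkn1a was at 178 FPKM against 34.54 to 46.82 in the other 5, the metallothionein Mt2 at 1368 against 55.13 to 314, and Cdo1, a cysteine dioxygenase, at 52.99 against 0.97 to 3.34. The part of macrophage RNA in these levels was not tested.

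**Figure D5:**
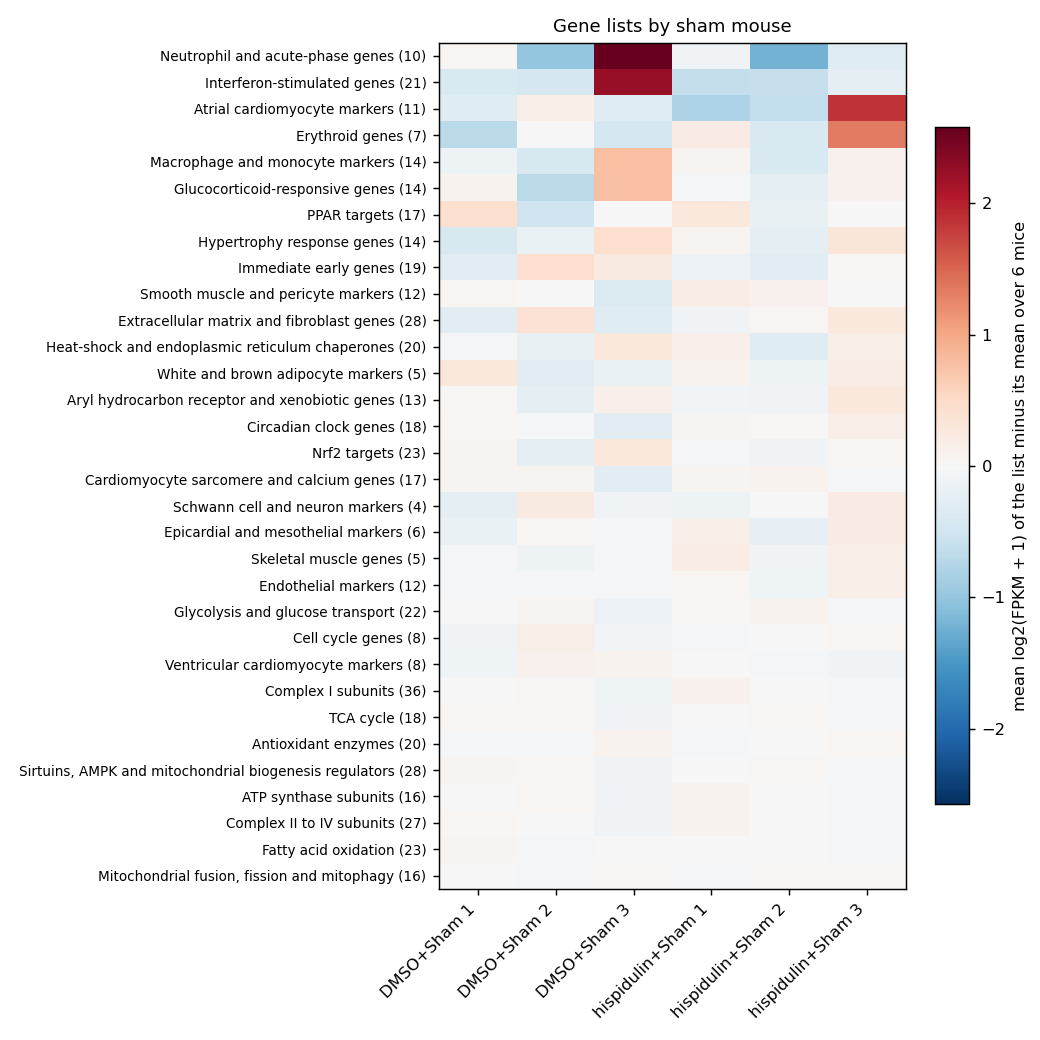
Mean log2(FPKM + 1) of each gene list (number of tested genes in parentheses) in each sham mouse, minus its mean over the 6 mice; red is above and blue below. DMSO+Sham 3 is red for acute-phase (2.58) and interferon genes (2.25), hispidulin+Sham 3 for atrial (1.86) and erythroid genes (1.34), and the mitochondrial lists at the bottom are nearly white in all 6.

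Among the treated mice, hispidulin+Sham 3 carried the most atrial RNA. The light chain Myl4 was at 9.62, 19.47 and 7.68 FPKM in DMSO+Sham and at 2.26, 2.87 and 325 in hispidulin+Sham, and sarcolipin, Sln, a regulator of the atrial calcium pump, at 3.54, 5.49 and 1.59 against 0.00, 0.00 and 116. The mouse was thus the highest of the 6 while the other treated mice were the lowest. It was the highest for 9 of the 11 atrial markers tested, which summed to 2482 FPKM there and to 739 to 1037 in the other 5. With 3 mice a group the differences had no usable size, as for Myl7 at -0.09 with an interval from -4.56 to 4.38, which ran from -2.77 without hispidulin+Sham 3 to 1.25 without hispidulin+Sham 1. Erythroid genes were also highest there. The beta globin Hbb-bt was at 102, 204 and 142 FPKM in DMSO+Sham and at 265, 158 and 750 in hispidulin+Sham, and Alas2, the erythroid enzyme that starts heme synthesis, at 8.56, 14.46 and 14.29 against 20.79, 11.65 and 55.31. All 7 tested erythroid genes were positive, with a median of 0.75 that was 0.34 without hispidulin+Sham 3, and 0 passed. The part of atrial tissue or blood in these levels was not tested.

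Single genes stood apart in the other mice too. In hispidulin+Sham 1 the smooth muscle actin Acta2 was at 255 FPKM, against 79.66 and 59.76 in the other treated mice and 82.52, 44.79 and 19.35 in the vehicle mice. Set side by side by number, the treated mouse was the higher in all 3 pairs, and DMSO+Sham 1 was the highest vehicle mouse. These pairs, too, are not given by the labels and were taken from these same data. The Acta2 difference was 1.34 (0.17 to 2.51) and 0.71 without hispidulin+Sham 1, 0.80 without DMSO+Sham 3 and 1.75 without hispidulin+Sham 3. Of the 12 smooth muscle and pericyte markers 11 were positive and 0 passed, with a median of 0.12 that was -0.0057 without DMSO+Sham 3, the lowest mouse in 9 of them. The other 11 ran from -0.0075 for Tagln to 0.20 for Smtn (-0.15 without DMSO+Sham 3), both of contractile smooth muscle, and the pericyte receptor Pdgfrb was higher without overlap (18.10, 15.74 and 14.65 against 18.33, 18.73 and 18.24 FPKM, difference 0.18). In hispidulin+Sham 2 the alarmins S100a8 and S100a9 were at 0.23 and 0.16 FPKM, the lowest of the 6, and the stress factor Atf3 was at 1.98 against 7.56 to 14.34. In DMSO+Sham 2 the collagens Col3a1 and Col15a1 were at 42.61 and 29.00 FPKM against 7.31 to 26.52 and 5.18 to 16.67 in the other 5, and the immediate early gene Nr4a1 at 27.40 against 2.82 to 9.41. In DMSO+Sham 1, Nr4a1 was the lowest. Immediate early genes had a median of -0.23 over 19 tested, 17 of them negative, and 0 passed. That median stayed between -0.39 and -0.07 with any sham mouse left out. Matrix and fibroblast genes had a median of 0.22 over 28, of which 0 passed and 20 were positive, and this ran from 0.05 without DMSO+Sham 1 to 0.40 without DMSO+Sham 2. Without DMSO+Sham 3 and hispidulin+Sham 3 together it was -0.05. Col1a1 and Col3a1 differed by 0.18 (-0.83 to 1.19) and 0.37 (-0.90 to 1.65), and each by -0.11 without DMSO+Sham 3. Without DMSO+Sham 2, the mouse with high collagens, Col1a1 and Col3a1 differed by 0.65 and 1.09. Pdgfra, a receptor of fibroblasts, was higher without overlap (5.46, 5.80 and 6.51 against 7.20, 6.65 and 8.12 FPKM, difference 0.26).

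Summed marker lists could not reach a p of 0.05 with 3 mice against 3. Of 15 lists of cell type markers, the smallest p of an exact two-sided permutation test of the summed FPKM was 0.10, for the lung and thymus list and the smallest that 3 against 3 can give, and 0.75 once adjusted over the lists. Markers of lung and thymus summed to at most 1.14 FPKM and those of cartilage and bone to at most 3.34 in the sham mice, and lymphocyte markers to at most 1.89.

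The numbers in the sample labels fall into series, and whether a series marks a cohort or a batch is not stated. In the series that holds DMSO+Sham 2 with hispidulin+Sham 1 and 2, 78 genes were at least 2-fold apart, and 8 of the 40 above were among them on the same side. In the series that holds DMSO+Sham 3 and hispidulin+Sham 3, 488 genes were, 37 of the 40 among them. These are 1 mouse against 2 and 1 against 1 over the 11664 genes tested, with no test. A difference between single mice varies more, so both counts are not on the same footing. The 40 were picked with DMSO+Sham 3 among the mice, the highest of the 6 in 32 of the 33 lower ones. Their return in its series was therefore largely fixed by that choice. The median of the interferon list was -0.17 in the first of these series and -2.33 in the second, that of the erythroid list -0.04 and 1.85, and that of complex I 0.02 and 0.05. DMSO+Sham 1 belongs to neither. For genes whose groups do not overlap, the sign within each series is fixed by that choice, and the sizes alone are given. Cd200 differed by 0.61 and 0.72, Gsta3 by 1.33 and 1.14, Ppp1r3c by 0.38 and 1.16 and Cry1 by 0.29 and 0.68.

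Whether hispidulin acted differently in the sham and the banded heart was tested as an interaction in the same model. Again 0 of 11664 genes passed (0 percent), the smallest adjusted p from limma was 0.9995, and 289 had an unadjusted p under 0.05. For Ppp1r3c the banded mice were at 125, 119 and 148 FPKM under DMSO and at 128, 103 and 115 under hispidulin, a difference of -0.18 beside 0.68 in sham. For Cys1, a protein of the primary cilium, it was -0.21 after banding beside 0.74 in sham. Neither contrast between sham and banded hearts passed the adjustment, and both genes were among those picked for a large difference in sham. That choice alone favours a smaller difference after banding.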

How the data were processed

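RNA of left ventricular muscle was sequenced in 12 mice, 3 a group, as single-end reads of 50 bases. The authors deposited FPKM (fragments per unit of transcript length and of library depth) for 18079 genes, rounded to 0.01. Per the submitters' processing notes the tools were HISAT2 2.0.4, Bowtie2 2.2.5, RSEM 1.2.12 and DESeq2 1.4.5, with no role or order, and the genome build is not given in the sources used here. Steps between low values lay within 0.1 of a whole number for 20.5% of 14478 ratios, against 20% if evenly spread, so read counts and depth could not be recovered and no count test was run.

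Groups were taken from the sample titles. The RefSeq gene table gave symbols for 17947 of 18079 genes (99.3%). After adding 1 and taking log2 of the deposited FPKM, genes that reached an FPKM of 1 in 3 or more of 12 libraries were tested. Group means over all 12 libraries were fitted with limma 3.58.1 in R 4.3.3 (8 error degrees of freedom, eBayes with a trend, two-sided, Benjamini-Hochberg), and figures and motif counts were made with Python 3.11.15. Each mouse gave 1 library, so p-values measure the spread between mice, pooled over the groups. The SD was larger in DMSO+Sham than in hispidulin+Sham in 67.5 percent of genes. The limma fit of the sham libraries alone had 189 genes under an unadjusted p of 0.05, in place of 287. The procedure was tested on simulated data with known changes and the same spread in every group. Medians and counts over the 35 gene lists carry no test.

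Deviations of same-numbered mice from their group means correlated by 0.13, 0.33 and 0.23 over all tested genes for numbers 1, 2 and 3. Since each exceeded 0.1, the numbers were treated as pairing the mice, a pairing that comes from the data and not from the labels, and a fit with the replicate block was run.

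The members, lists and tests were chosen with earlier results of these data known. Named genes were a panel of 35 (1 further gene is not reported here), up to 10 higher and 10 lower genes of largest difference at an unadjusted p under 0.05 without overlap, up to 5 genes in which a mouse stood furthest from its group, and from each list the members of highest level, of largest difference or at an unadjusted p under 0.05. Cd200, H2-Q6, Tagln, Pdgfrb, Cxcr2, Rxra, Irx4, Hey2, LOC100862456, LOC102641086, Col15a1, S100a8, Cdo1, the granule genes, and Ifit1 and Ifit3 for their promoters were chosen after their values were seen. Not every gene that met the rule is named. Alternatives were 0.1 added in place of 1, a filter at an FPKM of 5 or none, quantile normalization or median-of-ratios scaling, library weights, a fit with no trend, a fit of the sham libraries alone, the series of the label numbers as a covariate, the replicate block, and each sham mouse left out.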

Additional observations from a re-analysis of the deposited data

How the results depend on the processing

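The count of genes that passed between hispidulin+Sham and DMSO+Sham was 0 in every alternative run, with the replicate block (0) and in the interaction (0) too, and the block changed no call. The smallest adjusted p from limma was 0.0609 with library weights, and unadjusted p under 0.05 ranged from 102 to 1096 genes. The filter at an FPKM of at least 5 left 8092 genes tested in place of 11664, so its counts come from fewer genes. The number at least 2-fold apart was 40, against 114 with 0.1 added, 20 at an FPKM of at least 5, 22 with library weights, 98 with the label series as a covariate (DMSO+Sham 1 then drops out), 12 to 138 with a sham mouse left out, and 19 without DMSO+Sham 3 and hispidulin+Sham 3 together, an alternative chosen after seeing the data. Genes without overlap were 653, against 403 at an FPKM of at least 5, 1361 to 2875 with a mouse left out, where fewer mice make a gap more likely, and 2500 without both. Genes in which a mouse stood apart became 347, 647, 837, 109, 164 and 134 for DMSO+Sham 1, 2 and 3 and hispidulin+Sham 1, 2 and 3 with 0.1 added, and 95, 229 and 325 for DMSO+Sham 1, 2 and 3 and 15 and 26 for hispidulin+Sham 1 and 3 at an FPKM of at least 5. With a sham mouse left out the difference of Ppargc1a ranged from -0.0085 to 0.52, of Angptl4 from -0.0014 to 1.15, of Dbp from -0.11 to 1.06, of Irf7 from -1.996 to 0.11 and of Lcn2 from -2.35 to 0.62. Library weights gave -0.44 for Angptl4 and 0.14 for Nr4a1, and leaving out DMSO+Sham 3 and hispidulin+Sham 3 gave -0.032 for Dbp, 0.083 for Irf7 and 0.54 for Lcn2. The median over all genes stayed between -0.03 and 0.01. Of 479 list medians under the alternatives, 16 moved by more than the spread between mice. Depth is unknown, 3 mice a group leave wide intervals for low or variable genes, and the cause of each shift was not tested.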
